A study of Mus musculus with 13 samples.

Results

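The interferon-inducible GTPase genes of the guanylate-binding protein (Gbp) and immunity-related GTPase (Irg) families were followed in cardiomyocyte nuclei of mice given a progesterone receptor vector or an empty vector. The 8 genes were taken by symbol from the 55536 genes of the deposited table: Gbp2, Gbp3 and Gbp7 of the Gbp family, and Irgm1, Irgm2, Igtp, Iigp1 and Tgtp2 of the Irg family. Of these, 7 passed the filter on low counts, as did 16125 genes in all, and Igtp did not. The 8 genes were chosen by their measured levels in these libraries, which differed between the vectors, so every PGR-over-control value below is a description and not a test of that difference.

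The animals were C57BL/6J mice, an inbred strain, of both sexes, all injected into the abdomen with adeno-associated virus of serotype 6 on postnatal day 1 and all examined on postnatal day 56. In 2 groups the vector carried the human progesterone receptor (AAV_PGR), with 3 libraries of females (PGR_F, labelled replicates 1, 2 and 4) and 3 of males (PGR_M). In the other 2 groups the vector carried no insert (AAV_Con), with 4 libraries of females (Con_F) and 3 of males (Con_M), so the controls had also received virus. Each library was made from 3 to 6 pooled whole ventricles, from nuclei sorted for Pcm1, a centriolar protein that marks cardiomyocyte nuclei, and RNA was sequenced after ribosomal RNA depletion. The promoter of the vector and whether libraries came from separate litters or days are not given in the sources used here, so p-values measure the spread between these pools.

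Interferon-inducible GTPases defend the inside of the cell. Interferon gamma acts on its target genes through sites of the GAS type, and type I interferons through sites of the ISRE type, which interferon regulatory factors such as IRF1 also bind. The Gbp proteins are large GTPases that gather on bacteria and on vacuoles holding pathogens and help to set off inflammasomes. The Irg proteins work in 2 classes: Iigp1 and Tgtp2 are effectors that coat such vacuoles, while Irgm1, Irgm2 and Igtp sit on the cell's own membranes and hold the effectors inactive there. Most nucleated cells, heart muscle cells included, carry interferon receptors.

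The start regions of the genes are shown first, because the choice of the genes did not use their letters. The genes were taken as interferon-inducible families, so shares of ISRE-type and GAS-type letters among them are a description and no test. RefSeq promoters of GRCm38.p6, running from 250 bases before to 50 bases after the transcription start, matched 7 of the 8 genes. Iigp1 was not matched. An ISRE-type motif, written as GAAA, any 2 bases and a further GAAA, was searched on both strands and was present in 7 of these 7 genes, against 3.44% of all 32851 promoters in the table. The letters TTCNNNGAA, a GAS-type motif that reads the same on both strands, were present in 4 of 7, namely Gbp7, Irgm2, Igtp and Tgtp2, against 8.3% of all promoters. Both motifs were present together in those 4 genes and in 0.454% of all promoters. Of the other family genes with a promoter, Gbp2b, Gbp5, Tgtp1, Gm12250 and 9930111J21Rik1 also held ISRE-type letters. Ifi47, Irgq, Gm5431 and 9930111J21Rik2 held neither motif. GAS-type letters were also present in Gbp5, Tgtp1 and Gm12250. A motif match describes letters and does not show that a factor binds there. Gbp3 has a further promoter in the table, which held neither motif.

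In the 3 Irg genes with both motifs the GAS-type letters began exactly 11 bases upstream of the ISRE-type letters. A joint pattern with that spacing, the GAS-type letters followed after any 2 bases by the ISRE-type letters, was written after it had been seen in these genes. It occurred in 5 of the 32851 promoters (0.0152%), and all 5 were on chromosome 11: Irgm2, Igtp, Tgtp2, the neighbouring family gene Tgtp1, and the predicted gene Gm12185, whose counted interval overlaps Tgtp1 on the same strand. The 60 bases around the motifs are printed below for those 3 genes, 5′ to 3′ on the gene's strand, with both motifs in capitals.
Irgm2 (chr11:58214888-58214947, plus strand): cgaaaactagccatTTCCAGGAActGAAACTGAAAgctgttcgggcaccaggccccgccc
Igtp (chr11:58199497-58199556, plus strand): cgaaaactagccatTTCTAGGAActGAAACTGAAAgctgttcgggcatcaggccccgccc
Tgtp2 (chr11:49064248-49064307, minus strand): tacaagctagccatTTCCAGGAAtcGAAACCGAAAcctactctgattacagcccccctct
The RefSeq start of Irgm2 lies inside the interval that was counted for it, past the end of Igtp. The Irgm2 and Igtp promoters shared an identical run of 61 bases, and the longest run that Irgm2 shared with Tgtp2 was 17 bases.

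The other 4 matched genes carried the ISRE-type letters close to the start in one or the other orientation. They are printed in the same way, with the ISRE-type letters in capitals. In the 3 Gbp genes, which lie in 1 cluster on chromosome 3, the match is on the opposite strand and so reads TTTC, any 2 bases and a further TTTC. In Gbp3 and Irgm1 matches overlapped, so the capitals mark a longer run.
Gbp2 (chr3:142620579-142620638, plus strand): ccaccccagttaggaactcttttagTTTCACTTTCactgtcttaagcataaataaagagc
Gbp3 (chr3:142559974-142560033, plus strand): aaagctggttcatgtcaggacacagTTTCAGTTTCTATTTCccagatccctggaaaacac
Gbp7 (chr3:142530258-142530317, plus strand): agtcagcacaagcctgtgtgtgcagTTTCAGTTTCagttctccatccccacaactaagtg
Irgm1 (chr11:48871416-48871475, minus strand): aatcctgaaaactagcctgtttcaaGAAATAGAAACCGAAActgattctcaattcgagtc
In Gbp7 the GAS-type matches lay further upstream, at 106 and 87 bases before the start, and so outside the window printed.

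**Figure D1:**
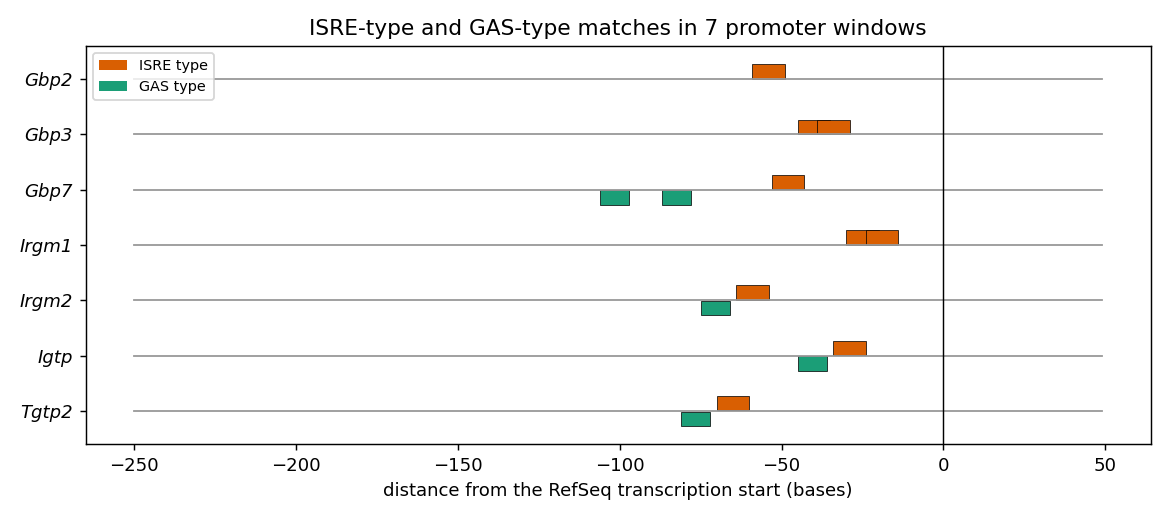
Position of the ISRE-type and GAS-type letter matches in the RefSeq promoters of 7 GTPase genes, with the distance from the transcription start in bases on the x axis and 1 line per gene. The ISRE-type match lies within the last 70 bases before the start in all 7 genes, and the paired GAS-type match sits just upstream of it in Irgm2, Igtp and Tgtp2.

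Total counts, in M (1e6), ran from 31.8 to 55.5 in PGR_F, 45.3 to 57.9 in PGR_M, 37.6 to 58.9 in Con_F and 33.3 to 86.3 in Con_M. Pcm1, the sorted marker, was between 103 and 139 CPM (counts per M of scaled library total) in every library, and the 6 cardiomyocyte markers together made up 75269 to 94512 CPM. The human insert is no gene of the mouse table, and mouse Pgr stood at 0 to 0.138 CPM, so the vector labels could not be checked by it. The library Con_F 4 held 159 counts of Y-linked genes, 1.01% of the mean male level, where the other female libraries held 0.0112 to 0.112%. Counts of the GTPase genes are therefore also given without Con_F 4.

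All 7 measured GTPase genes stood higher on average with the PGR vector than with the control vector, in females and in males. Together they summed to 176, 89.8 and 40.9 CPM in PGR_F 1, 2 and 4 and to 90.9, 49.9 and 70.6 CPM in PGR_M 1 to 3. The control sums were 31.5, 33.4, 28.2 and 40.0 CPM in Con_F 1 to 4 and 42.5, 18.6 and 20.1 CPM in Con_M 1 to 3. Because each library is bulk RNA of many nuclei, a change in the number of cells that express a gene and a change of RNA per cell cannot be told apart.

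The regulators of the Irg family came in at a few CPM. Irgm1, which also acts in autophagy and at mitochondria, had 11.01, 5.36 and 3.93 CPM in PGR_F and 6.58, 4.26 and 5.36 CPM in PGR_M. Its control values were 3.33, 3.66, 2.99 and 4.10 CPM in Con_F and 2.76, 2.54 and 2.99 CPM in Con_M. The males did not overlap, while PGR_F 4 lay below Con_F 4. Irgm1 had the smallest difference of the 7 genes, a log2 fold change of 0.95 (SE 0.20) over both sexes.

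Irgm2 had 19.1, 8.71 and 5.14 CPM in PGR_F and 12.5, 6.86 and 10.7 CPM in PGR_M, against 3.64, 3.66, 3.44 and 5.82 CPM in Con_F and 2.39, 2.45 and 3.70 CPM in Con_M. Its raw counts of 302 to 725 in the PGR libraries and 86 to 220 in the control libraries make it one of the better counted members. Only the pair PGR_F 4 and Con_F 4 overlapped between the vectors. The log2 fold change over both sexes was 1.62 (SE 0.30).

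Igtp, the remaining regulator, could not be measured in these counts. It held 2 counts over all 13 libraries, 1 in PGR_F 2 and 1 in PGR_M 3. Its interval on chromosome 11 (58199556 to 58207591, plus strand, GRCm38) shares 7974 of its 8036 bases (99.2%) with the counted interval of Irgm2 on the same strand, which leaves 62 bases of its own. Over both families, 7 genes had at least 99% of their bases inside another gene on the same strand, and none of them had more than 2 counts. They were Igtp, Gbp4, Gbp6, Gbp9, Gbp10, Ifi47 and 9930111J21Rik1. A count near 0 for them does not measure expression, and reads of Igtp and Irgm2 in the shared 34.4% of the Irgm2 interval cannot be told apart.

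The effectors were Iigp1 and Tgtp2. Iigp1, which takes apart the vacuoles of intracellular parasites, was the most abundant member, with 126, 69.0 and 28.9 CPM in PGR_F and 62.4, 35.1 and 47.5 CPM in PGR_M. It had 23.0, 23.7, 19.9 and 26.4 CPM in Con_F and 35.9, 12.5 and 12.2 CPM in Con_M. Iigp1 was the one gene whose PGR_F libraries all lay above all Con_F libraries, and the one gene whose males overlapped, through Con_M 1. In that library Iigp1 made up 84.5% of the summed level of the 7 genes, where it was between 60.8 and 76.9% in the other 12. Con_M 1 was also the highest Con_M library for Gbp2, Gbp3 and Tgtp2, but not for Gbp7, Irgm1 and Irgm2. The log2 fold change of Iigp1 over both sexes was 1.46 (SE 0.38), and in males it was 1.24, or 1.97 without Con_M 1.

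Tgtp2 differed most and was counted least in the controls. Its raw counts were 205, 68 and 32 in PGR_F and 152, 35 and 97 in PGR_M, against 8, 15, 11 and 28 in Con_F and 10, 3 and 1 in Con_M. As CPM these were 6.39, 1.39 and 0.545 in PGR_F and 2.63, 0.753 and 1.99 in PGR_M, against 0.139, 0.350, 0.263 and 0.740 in Con_F and 0.116, 0.0855 and 0.0311 in Con_M. Every PGR_M library was thus above every Con_M library, and PGR_F 4 was again below Con_F 4. The log2 fold change of 3.60 (SE 0.71) over both sexes is a 12.1-fold difference, with a 95% interval of 2.02 to 5.17 on the log2 scale. It rested in part on PGR_F 1, without which the log2 fold change was 2.86 over both sexes. Tgtp2 lies inside Olfr56 on the opposite strand, and Olfr56 held 66 counts in all.

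Of the Gbp genes, Gbp7 had the highest level and Gbp3 the lowest. Gbp7, which helps assemble the oxidase of macrophages, had 8.89, 2.92 and 1.34 CPM in PGR_F and 4.37, 1.61 and 3.04 CPM in PGR_M, against 0.728, 1.00, 0.742 and 1.77 CPM in Con_F and 0.722, 0.513 and 0.809 CPM in Con_M. Its log2 fold change over both sexes was 2.08 (SE 0.45), the second after Tgtp2. Gbp2, a lipid-anchored member recruited to bacteria and parasite vacuoles, had 2.37, 1.43 and 0.664 CPM in PGR_F and 1.55, 0.796 and 1.23 CPM in PGR_M, against 0.329, 0.583, 0.502 and 0.740 CPM in Con_F and 0.326, 0.313 and 0.156 CPM in Con_M. That is a log2 fold change of 1.77 (SE 0.30).

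Gbp3 was the lowest member by count, with 54, 47 and 22 reads in PGR_F and 54, 25 and 37 in PGR_M, against 22, 20, 17 and 15 in Con_F and 25, 9 and 6 in Con_M. Its log2 fold change was 1.38 (SE 0.29). In all 3 Gbp genes the males did not overlap and the females overlapped through PGR_F 4, which for Gbp3 lay below all 4 Con_F libraries at 0.374 CPM.

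**Figure D2:**
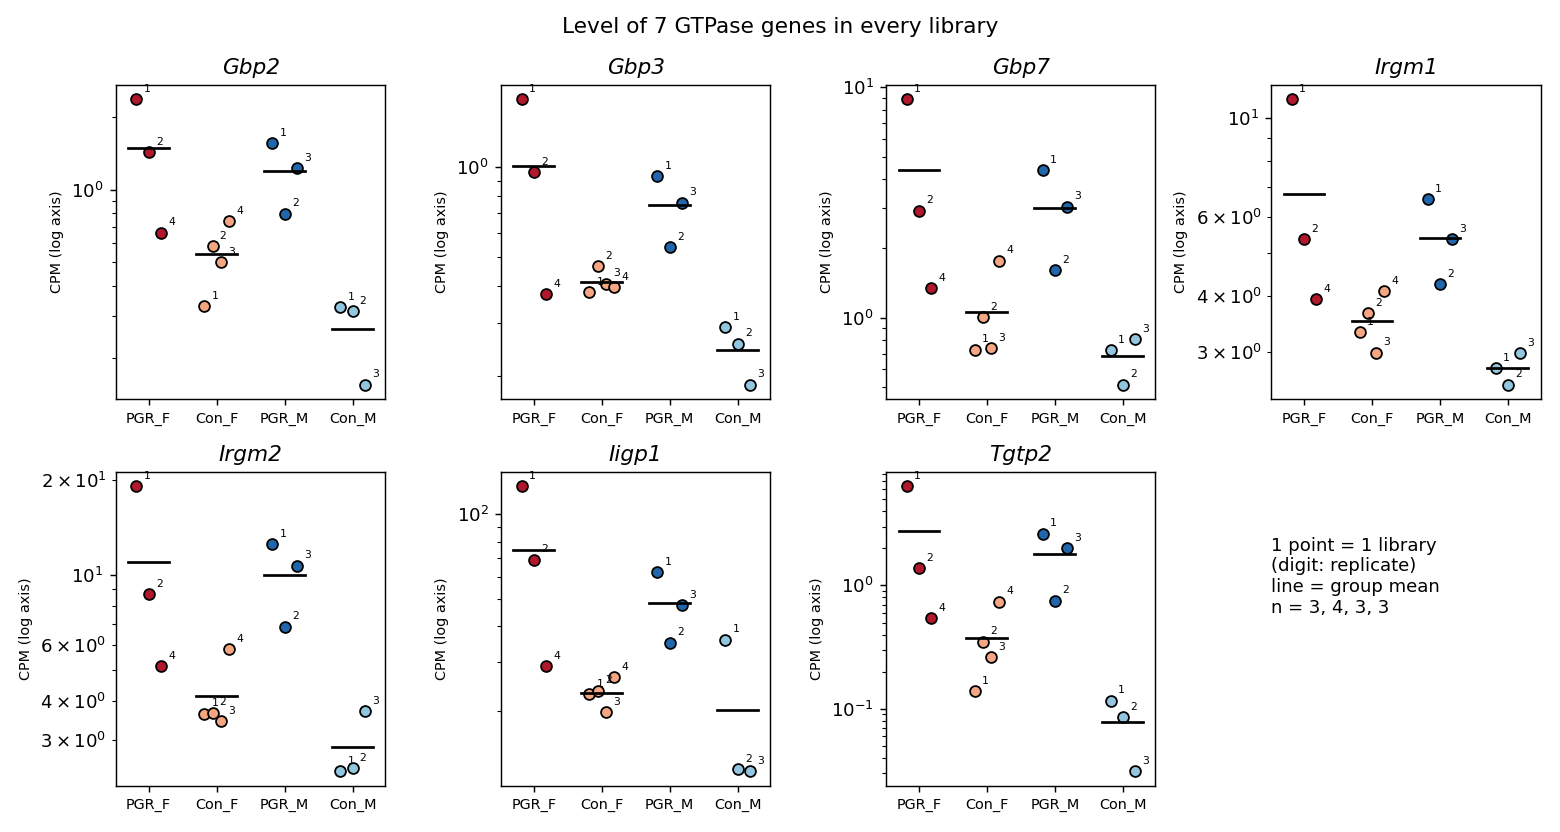
Level of 7 GTPase genes in each of the 13 libraries, in CPM on a log axis, with 1 point per library, its replicate number beside it and a line at the group mean. PGR_F 1 is the highest library for all 7 genes, and PGR_F 4 lies below at least 1 Con_F library in all but Iigp1.

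The libraries kept much the same order from gene to gene, except in Con_M. PGR_F 1 was the highest of the 13 libraries for 7 of 7 genes, and PGR_F 4 was the lowest of the 6 PGR libraries for 7 of 7. In PGR_M replicate 1 was the highest and replicate 2 the lowest for 7 of 7. Con_F 4 was the highest Con_F library for 6 of 7, the exception being Gbp3. In Con_M the genes divided: replicate 1 was the highest for 4 of 7 (Gbp2, Gbp3, Iigp1 and Tgtp2) and replicate 3 for the other 3 (Gbp7, Irgm1 and Irgm2). Over the 21 pairs of genes the Pearson correlation of log2 CPM across the 13 libraries was 0.852 to 0.989, and after the group means were removed it was 0.616 to 0.967. The genes share their libraries and depth, so these values describe the 13 libraries.

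Counted as separation, 6 of 7 genes had every PGR_M library above every Con_M library, where 7.2% of all tested genes did. In females this held for 1 of 7, Iigp1, against 4.17% of all genes. Over both sexes 0 of 7 had all 6 PGR libraries above all 7 control libraries, against 0.26% of all genes. Leaving out Con_F 4, a choice made after seeing the data, gave 6 of 7 in females (9.38% of all genes) and 5 of 7 over both sexes (0.738%). Leaving out PGR_F 4 instead gave 7 of 7 in females (8.22%) and 5 of 7 over both sexes (0.527%). Without PGR_F 1 the counts were 1 of 7 in females (7.99%) and 0 of 7 over both sexes (0.478%). Without Con_M 1 they were 7 of 7 in males (13%) and 1 of 7 over both sexes (0.459%).

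By edgeR's quasi-likelihood test with Benjamini-Hochberg adjustment over all 16125 genes, 0 of 7 GTPase genes had an adjusted p under 0.05 in the vector contrast averaged over the sexes, where 0.0062% of all genes did. That share is 1 gene, Pmepa1, a regulator of transforming growth factor beta signalling, which was lower with the PGR vector and is named here after its value was seen. The adjusted p of the GTPase genes ran from 0.0607 for Gbp2 to 0.148 for Iigp1. Their median log2 fold change was 1.62, where the median of all tested genes was 0.00. At an unadjusted p under 0.05 the count was 7 of 7, where 14.8% of all genes reached that level. With DESeq2 7 of 7 had an adjusted p under 0.05 against 2.19% of all genes it tested, and with limma-voom 0 of 7 did (0.0124% of all genes). The call also turned on 2 libraries: by edgeR it was made for 6 of 7 without Con_F 4 (2.09% of all genes) and for 6 of 7 without PGR_F 4 (0.208%).

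Within each sex the vector difference pointed the same way for each gene. In females 0 of 7 genes passed the adjusted threshold (0% of all genes), with log2 fold changes of 0.93 (SE 0.28) for Irgm1 to 2.89 (SE 0.84) for Tgtp2 and a median of 1.44. In males 0 of 7 passed (0% of all genes), with 0.97 (SE 0.30) for Irgm1 to 4.30 (SE 1.15) for Tgtp2 and a median of 1.84. Unadjusted, 7 of 7 in females and 6 of 7 in males were under 0.05, against 10.9% and 7.48% of all genes. With DESeq2 the adjusted count was 0 of 7 in females (0.567% of all genes it tested) and 2 of 7 in males (0.15%). PGR_F 1 weighed on the female values of all 7 genes, and most on Tgtp2, whose log2 fold change was 1.41 without it, against 2.89 with it. Without PGR_F 1 the female values of the other genes were 1.06 for Iigp1, 1.01 for Gbp7, 0.96 for Gbp2, 0.74 for Irgm2, 0.66 for Gbp3 and 0.39 for Irgm1, and the median was 0.96, against 1.44 with it.

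Whether the vector difference was larger in one sex was fitted as an interaction. The levels in all 4 groups were known when the genes were chosen, so its values are not independent of that choice. The difference of the log2 fold changes, females minus males, was below 0 for 6 of 7 genes with a median of -0.33, and above 0 for Iigp1 alone at 0.44 (SE 0.75). No gene passed by edgeR, with an adjusted p of 1.00 for each, and 0% of all genes did. Unadjusted, 0 of 7 were under 0.05, against 3.26% of all genes, and DESeq2 and limma-voom also called 0 of 7. The interval was -1.97 to 0.66 for Gbp2, -0.93 to 0.84 for Irgm1 and -4.82 to 2.01 for Tgtp2, and for each gene but Irgm1 it held differences of 1 log2 unit or more.

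The comparison of females with males under each vector draws on the same known levels, so its values are a description too. Under the control vector the log2 fold change of females over males was above 0 for 7 of 7 genes, with a median of 0.60 where that of all genes was 0.00. It was largest for Tgtp2 at 1.96 (SE 1.31, adjusted p = 0.576 by edgeR) and 0.92 for Gbp2 (SE 0.48, adjusted p = 0.446 by edgeR). None of the 7 passed, against 0.229% of all genes, and unadjusted 0 of 7 were under 0.05 against 12.4%. All Con_F libraries nevertheless lay above all Con_M libraries for 4 of 7, which were Gbp2, Gbp3, Irgm1 and Tgtp2, against 6.41% of all genes. The lowest Con_F and the highest Con_M value lay close together for Gbp2, at 0.329 and 0.326 CPM, and for Irgm1, at 2.990 and 2.988 CPM. They lay further apart for Gbp3, at 0.381 and 0.291 CPM, and for Tgtp2, at 0.139 and 0.116 CPM. As raw counts these were 22 in Con_F 1 and 25 in the deeper Con_M 1 for Gbp3. For Tgtp2 they were 8 and 10 in the same libraries, so its gap rests on few reads. Without Con_F 4 the median log2 fold change of females over males was 0.35, and Tgtp2 stood at 1.42. The separation without Con_F 4 was again 4 of 7, against 11% of all genes.

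Endothelial, fibroblast and macrophage markers leaned the same way under the control vector, and mural markers were mixed. Endothelial markers summed to 58.2 to 68.9 CPM in Con_F and 31.0 to 54.9 CPM in Con_M, and fibroblast markers to 131 to 167 CPM in Con_F and 60.7 to 112 CPM in Con_M. The log2 fold change of females over males was above 0 for 10 of 10 endothelial genes (median 0.52), 8 of 8 fibroblast genes (median 0.74) and 8 of 10 tested macrophage genes (median 0.46). Mural markers summed to 300.4 to 338 CPM in Con_F and 323 to 338 CPM in Con_M, with a lower mean in Con_F (312 against 330.0 CPM), and 6 of 8 mural genes were above 0 (median 0.13). None of these markers was called. Unadjusted by edgeR, 8 of 10 endothelial and 4 of 8 fibroblast genes were under 0.05, against 12.4% of all genes. For macrophage genes the count was 2 of 10 and for mural genes 1 of 8. The part of these markers in the difference of the GTPase genes was not tested.

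Under the PGR vector the values of females over males were again above 0 for 7 of 7 genes, with a median of 0.36, and 0 of 7 passed (0.143% of all genes; adjusted p 0.897 to 0.983 by edgeR). Unadjusted 0 of 7 were under 0.05, against 7.25%. None of the 7 had all PGR_F libraries above all PGR_M libraries, against 7.31% of all genes. This direction rested on 1 library: without PGR_F 1, 6 of 7 values turned below 0, from -0.20 for Gbp3 to -0.93 for Tgtp2, and Iigp1 stood at 0.0048.

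**Figure D3:**
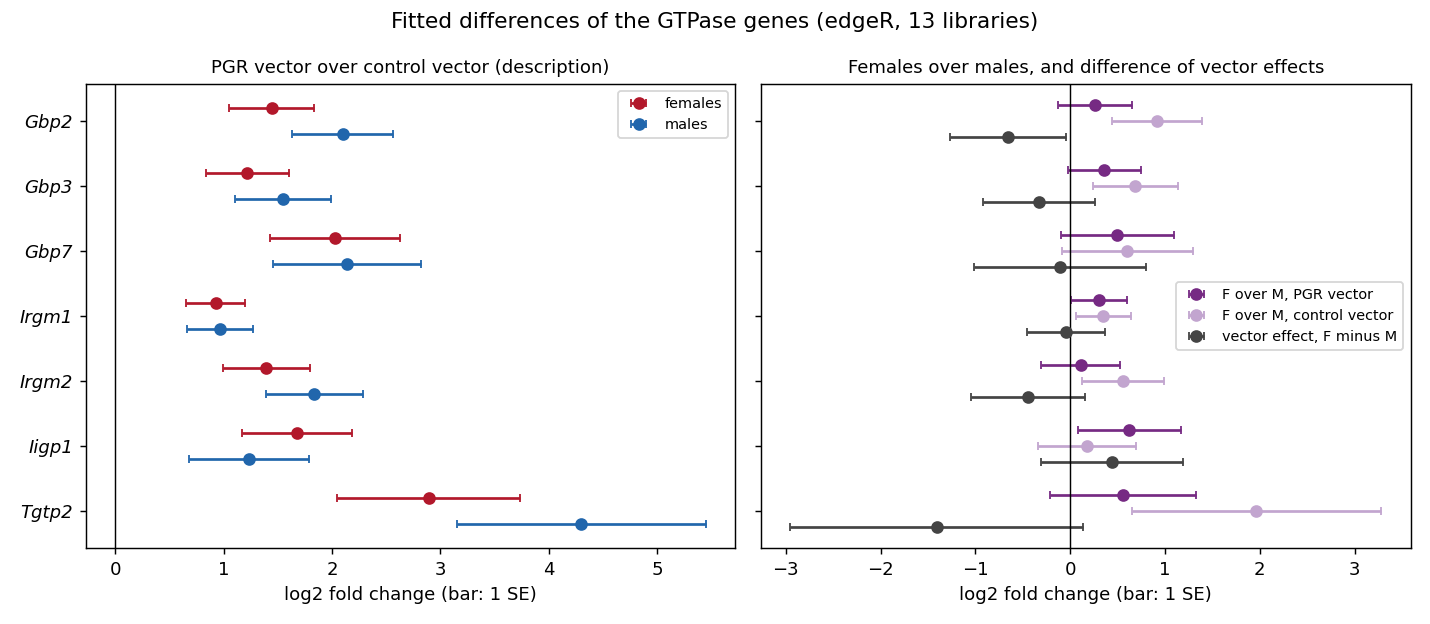
Fitted log2 fold changes of 7 GTPase genes by edgeR, with bars of 1 SE: on the left the PGR vector over the control vector in females and in males, on the right females over males under each vector and the female minus male difference of the vector effect. Values on the left all lie above 0, and those for the difference of the vector effect have SE bars as wide as or wider than their distance from 0 in all genes but Gbp2.

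Per kb of counted interval, which holds introns as well as exons, Iigp1 stood well above the rest. It averaged 4.49 ± 2.94 CPM per kb in PGR_F, 2.91 ± 0.823 in PGR_M, 1.399 ± 0.162 in Con_F and 1.22 ± 0.819 in Con_M (SD, n = 3, 3, 4 and 3). Irgm1 came next with 0.697 ± 0.385, 0.556 ± 0.120, 0.362 ± 0.0487 and 0.284 ± 0.0233 CPM per kb in the same 4 groups, and its libraries overlapped those of Iigp1 in none of them. Irgm2 followed with 0.474 ± 0.314, 0.433 ± 0.125, 0.179 ± 0.0484 and 0.123 ± 0.0321 CPM per kb. It overlapped Irgm1 in both PGR groups and not in the control groups. The Irgm2 values divide by its whole interval, 34.4% of which is shared with Igtp, and how reads there were assigned is not known.

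The order below these 3 genes differed between the vectors. Tgtp2 came next in PGR_F (0.396 ± 0.451 CPM per kb) and PGR_M (0.255 ± 0.136), ahead of Gbp7, Gbp2 and Gbp3. In Con_F it averaged 0.0532 ± 0.0370, just under Gbp7 at 0.0536 ± 0.0248. In Con_M it was last, at 0.0111 ± 0.00616 CPM per kb, within the spread of Gbp2 at 0.0152 ± 0.00546. Neighbours among these 4 genes differed by less than their spread in PGR_F. Per kb of exon in the GENCODE annotation, a length chosen after seeing the data, Irgm2 stood above Irgm1 in all 4 groups, so their order depends on the length used.

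**Figure D4:**
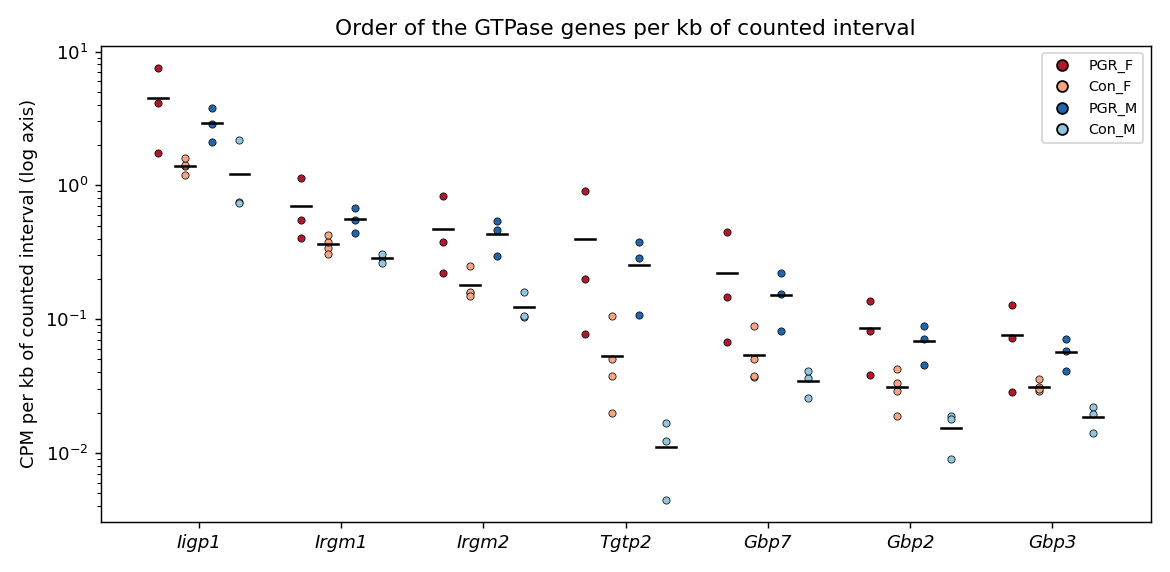
CPM per kb of counted interval for 7 GTPase genes on a log axis, with 1 point per library and a line at the group mean, groups in the order PGR_F, Con_F, PGR_M and Con_M within each gene. Iigp1 lies highest in every group, and Tgtp2 has the widest step between the PGR and control libraries.

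Other genes of the 2 families were read from a list of 19, of which 9 passed the count filter. In the averaged vector contrast 8 of the 9 were above 0 and the median log2 fold change was 2.01, with 0 called by edgeR. Gm4841, Gm12250 and Gbp11 averaged only 0.277, 0.0849 and 0.0567 CPM in Con_F and passed the count filter only through PGR libraries. Their high values were thus favoured by the filter, and with them the median. The 4 with the smallest p were clone-named or predicted genes of the list: Gm4841 at 4.33 (SE 0.82), Gm12250 at 2.81 (SE 0.62), F830016B08Rik at 2.52 (SE 0.57) and Gm4951 at 2.01 (SE 0.39). Gm4841 had 285, 107 and 38 counts in PGR_F and 270, 36 and 181 in PGR_M, against 12, 4, 5 and 26 in Con_F and 9, 2 and 5 in Con_M. F830016B08Rik was the most counted of them, with 537 to 2596 counts in PGR_F and 521 to 2446 in PGR_M, against 166 to 499 in Con_F and 111 to 502 in Con_M. Both repeat the order of libraries seen in the members, with PGR_F 1 highest.

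Gbp11 stood at 2.19 (SE 0.59) and Gbp5, which promotes assembly of the NLRP3 inflammasome, at 0.51 (SE 0.17). Irgq, a quasi-GTPase relative, was the 1 tested gene below 0, at -0.19 (SE 0.08). Gbp2b did not pass the filter: it held 5, 4 and 3 counts in PGR_F and 4, 3 and 2 in PGR_M, against 0, 1, 0 and 0 in Con_F and 0 in each Con_M library. Gm12185, which was looked at after seeing that its promoter holds the spaced motif pair, had 1783 counts in all and a log2 fold change of 3.98 (SE 0.75, adjusted p = 0.0902 by edgeR). It had 101 to 638 counts in PGR_F and 71 to 414 in PGR_M, against 11 to 47 in Con_F and 10 to 17 in Con_M, and these counts can include reads of Tgtp1, which alone held 11.

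Of the other large interferon-inducible GTPases, 4 of 4 were above 0 in the averaged contrast and 0 were called. Mx1, which blocks influenza viruses in mice with an intact gene, stood at 0.94 (SE 0.25) and Mx2 at 0.26 (SE 0.10). Gvin1 (0.26, SE 0.36) and Gm4070 (0.13, SE 0.35) differed by less than their error. The median of this list was 0.26.

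The ligands of the pathway were hardly counted. None of the 7 interferon genes listed passed the filter. Ifng held 2 counts over all 13 libraries, at most 1 in any of them, and Ifnb1 held 0. A count of 0 allows up to 3 counts in a library, between 0.0349 and 0.0936 CPM. Interferon made by cells outside the sort would not be seen here. The receptor chains Ifnar1, Ifnar2, Ifngr1 and Ifngr2 were at a median log2 fold change of 0.06, with 3 of 4 above 0. Of the kinases, Jak2, which works at the interferon gamma receptor, stood at 0.15 (SE 0.06) and Jak1 at -0.02 (SE 0.09). No receptor or kinase gene was called.

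The transcription factors of the pathway divided. Of 10 listed, 9 were tested, 7 were above 0, 0 were called, and the median log2 fold change was 0.96. Nlrc5, the activator of class I antigen presentation genes, stood at 2.03 (SE 0.42), Batf2, an AP-1 family factor, at 1.75 (SE 0.38), Irf1 at 0.96 (SE 0.16) and Irf7 at 0.96 (SE 0.21). Batf2 passed the count filter only through PGR libraries and averaged 0.145 CPM in Con_F and 0.162 CPM in Con_M. Irf9, a DNA-binding factor of the type I response, stood at -0.12 (SE 0.08) and Irf2, a competitor of Irf1, at -0.03 (SE 0.05). Irf1 had the smallest unadjusted p of the list (adjusted p = 0.0607 by edgeR). It had 4.99, 3.14 and 2.14 CPM in PGR_F and 3.16, 2.86 and 2.69 CPM in PGR_M, against 1.96, 2.24, 1.84 and 2.30 CPM in Con_F and 1.14, 1.37 and 1.25 CPM in Con_M.

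The brakes on the pathway were mixed, with 4 of 7 above 0, 0 called and a median of 0.09. Socs1, which blocks the Jak kinases, stood at 0.93 (SE 0.35) on 95 counts, and Usp18, which dampens the type I receptor, at 0.43 (SE 0.14). By sex, Socs1 stood at 0.17 (SE 0.43) in females and 1.68 (SE 0.54) in males. Usp18 stood at -0.02 (SE 0.19) in females and 0.88 (SE 0.21) in males. The difference between the sexes had an unadjusted p under 0.05 by edgeR for 3 of 7 genes of this list. Over all genes that share was 3.26%, and 0 of the 7 were called. Pias4 stood at -0.20 (SE 0.08) and Ptpn2, a tyrosine phosphatase, at -0.14 (SE 0.07). Among the conjugation genes of autophagy that place Irg and Gbp proteins on vacuoles, 7 of 11 tested were above 0, 0 were called and the median was 0.01. Gabarapl1, one of the tags conjugated to membranes, was at 0.29 (SE 0.10) and Ubqln1 at -0.18 (SE 0.06), while the conjugation enzymes Atg5 and Atg16l1 were at -0.03 (SE 0.05) and -0.08 (SE 0.06). Of the inflammasome genes that act with Gbp proteins, 3 of 5 tested were above 0 and 0 were called, with a median of 0.34. The DNA sensor Aim2 was at 0.34 (SE 0.18), and Casp4, the caspase that binds bacterial lipopolysaccharide, at -0.28 (SE 0.30).

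The pattern of the 7 genes over the libraries was then set against that of every well-counted gene. Each of 11102 genes past the filter with a mean log2 CPM of at least 0 was ranked by its Pearson correlation with the mean scaled level of the 7 genes over the 13 libraries. Among the 10 highest, members and predicted names left aside, were Nlrc5 (r = 0.963), Cd274 (0.960), Tap1 (0.958), B2m (0.957), Ddx60 (0.945), Ddx58 (0.944), Parp14 (0.943), Irf1 (0.943) and Herc6 (0.942). With the group means removed these correlations were between 0.848 for B2m and 0.917 for Ddx60. The genes were picked by their correlation over the same libraries, so the values within groups are no separate evidence. No p is given, since the libraries share groups and PGR_F 1 lies far from the rest. Nlrc5 spanned the widest range of CPM among the regulators, with 44.9, 17.2 and 10.1 in PGR_F and 27.5, 10.2 and 16.5 in PGR_M, against 5.93, 7.84, 5.53 and 14.1 in Con_F and 2.70, 2.93 and 3.80 in Con_M.

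**Figure D5:**
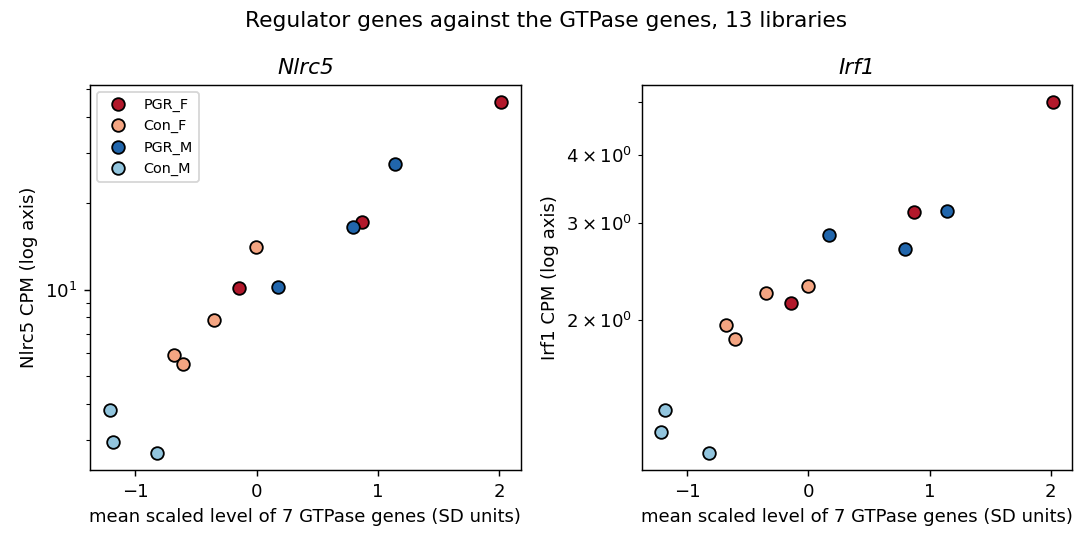
Level of Nlrc5 and Irf1 in CPM on a log axis against the mean scaled level of 7 GTPase genes in SD units, with 1 point per library and colours for the 4 groups. PGR_F 1 lies at the upper right in each panel and the Con_M libraries at the lower left, and libraries of 1 group are spread along the same line.

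Markers of other cell types were read beside the vector difference. The 12 lymphocyte genes summed to 1.93 CPM (62 counts) in PGR_F 1, the library highest for the GTPase genes, and to at most 0.658 CPM in each of the other 12. They summed to 0.530 and 0.493 CPM in PGR_F 2 and 4. In PGR_M 1 to 3 they summed to 0.432, 0.602 and 0.328 CPM, where the GTPase genes summed to 90.9, 49.9 and 70.6 CPM. None of the lymphocyte genes passed the filter or stood at 0 in every library. The 12 macrophage genes summed to 20.9 to 27.9 CPM in PGR_F and 16.6 to 26.2 CPM in PGR_M, against 19.7 to 25.5 CPM in Con_F and 15.5 to 21.2 CPM in Con_M. In the averaged vector contrast 9 of 10 tested macrophage genes were above 0 with a median of 0.13 and 0 called, led by Ptprc at 0.72 (SE 0.22). Endothelial genes were above 0 in 6 of 10 (median 0.03) and fibroblast genes in 5 of 8 (median 0.05). Mural genes were above 0 in 6 of 8 (median 0.04) and cardiomyocyte genes in 2 of 6 (median -0.10). For each of these lists 0 were called. The endothelial average joins opposite directions: 0 of 10 were above 0 in females (median -0.24) and 10 of 10 in males (median 0.26). Whether immune cells among the sorted nuclei had a part in the GTPase levels was not tested.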

How the data were processed

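The deposited values are unscaled read counts of each gene in each of 13 libraries. Among the tools in the submitters' processing notes are featureCounts 1.5.0 and STAR 2.5.3a, and among the builds mm10 and GRCm38, with no role stated for any. Per the labels' protocols, the library kit keeps strand. Per the file headers, each gene's length spans its whole interval, introns included, and no source used here says to which gene a read in an overlap was assigned. Libraries were grouped by vector and sex.

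Tests used edgeR 4.0.16 (R 4.3.3): filterByExpr with the 4 groups kept 16125 genes, libraries were scaled with TMM factors, and a robust quasi-likelihood model of 4 group means was fitted to all 13 libraries. The SE was taken as the size of the log2 fold change over the root of F, and 95% intervals use the moderated degrees of freedom. An adjusted p under 0.05, over all genes tested, counts as a call. CPM use the TMM-scaled totals. The steps were tested on simulated counts. Libraries of the same group differed by more than sampling noise.

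Alternatives were RLE size factors, no count filter, the authors' smaller table of 15645 genes, DESeq2 1.42.0, limma-voom (limma 3.58.1), each library left out in turn and the replicate number as a block. The members, 16 gene lists and tests were chosen with earlier results of these data known. The text names all 8 members and, of each list, up to 4 tested genes with the smallest p in the averaged vector contrast, with Irf1 always; 1 gene that this rule takes is not reported here. Further genes of a list were named after their values were seen. Promoters are RefSeq's. Proteins were not used here.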

Additional observations from a re-analysis of the deposited data

Results flagged for a closer look

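Irgm2 in the control females had 1 library apart from the others: Con_F 4 stood at 5.82 CPM, where Con_F 1 to 3 stood at 3.64, 3.66 and 3.44 CPM. The gap from Con_F 4 to its nearest neighbour was 0.908 of the range of the group, above Dixon's critical value of 0.829 for 4 samples. About 1 in 20 groups would be marked by chance, and the 7 genes were looked at in this group. Con_F 4 was also the library with 159 counts of Y-linked genes, and its part in the level of Irgm2 was not tested.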

How the results depend on the processing

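The direction of the vector difference in the 7 genes, averaged and within each sex, was the same under all 19 alternatives, as was the count of 0 calls in the female vector contrast, the difference between the sexes and both sex contrasts. The averaged call was 0 of 7 in the main fit, 2 without the count filter, 7 with DESeq2, and 0 to 6 with a library left out. In males DESeq2 called 2. Over all genes, the averaged contrast called 1 gene in the main fit, 2 with limma-voom, 146 without the filter, 314 with DESeq2, 338 without Con_F 4 and 34 without PGR_F 4, and the cause was not tested. DESeq2 and the fit without the filter called 78 and 25 genes for the vector in females and 27 and 12 in males, where the main fit called 0. Their counts were 75 and 51 for sex under the PGR vector, against 23, and 213 and 131 for sex under the control vector, against 37. With a library left out these counts lay between 10 and 44 and between 14 and 99.

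Uncalled values near 0 changed sign. With limma-voom, females over males under the PGR vector stood at -0.15 for Irgm2 and -0.18 for Tgtp2. With a library left out, that contrast ran from -0.23 to 0.63 for Gbp2, -0.20 to 0.79 for Gbp3, -0.53 to 0.94 for Gbp7, -0.23 to 0.58 for Irgm1, -0.55 to 0.46 for Irgm2 and -0.93 to 1.08 for Tgtp2. Under the control vector Iigp1 ran from -0.077 to 0.91. The difference of the vector effect ran from -0.89 to 0.10 for Gbp3, -1.13 to 0.34 for Gbp7, -0.58 to 0.23 for Irgm1 and -0.29 to 0.82 for Iigp1, and the median of the 7 genes was -1.10 without PGR_F 1, against -0.33 with it.

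Replicate numbers did not pair the libraries: over 16 same-numbered pairs the deviations from the group means correlated at -0.25 to 0.25, 3 pairs were over 0.1, and 5 of 13 libraries correlated best with their own number. With the number as a block, 0 of 7 genes were called in each contrast, the averaged median was 1.57, and the calls over all genes went to 35 for sex under the PGR vector and 25 under the control vector. Low counts limit Tgtp2, Gbp2 and Gbp3 most, with 1 to 28 reads per control library.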
